A study of Mus musculus with 3 samples.

Results

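The histone cluster genes are the genes of the mouse histone gene clusters, named in the count tables by their older symbols (Hist1h to Hist4h, after the 4 loci). They were chosen by symbol alone, as every gene with such a name in both deposited count tables. This gave 61 members of 14656 genes, with 49 in the Hist1 locus, 9 in Hist2, 2 in Hist3 and 1 in Hist4. By the family in the symbol, 5 are of the linker histone H1, 17 of H2A, 16 of H2B, 11 of H3 and 12 of H4. Hist1h2al, counted under H2A, is annotated in GENCODE vM21 as a processed pseudogene of 339 bases (GRCm38 chr13:51202727-51203065, minus strand), and the other 59 members matched there are protein-coding. A further 4 such genes (Hist1h1t, Hist1h2aa, Hist2h2aa2 and Hist2h3c2) were listed in only 1 of the tables and are not members.

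Cells came from the dorsal skin epithelium of wild-type C57BL/6JOlaHsd mouse embryos at stage E14.5, when hair placodes have formed in a still stratifying epidermis. The total epithelium library (n = 1) held live sorted epithelial cells, and the 2 placode-enriched libraries, described as biological replicates, held cells sorted for MAdCAM-1 on their surface. All 3 were droplet libraries that count the 3′ ends of polyadenylated RNA, each from sheets of 3 to 4 littermates pooled before dissociation, so no embryo can be told from another. All embryos were untreated and of 1 genotype. The placode-enriched libraries share 1 table, and the number that ends each cell's barcode was read as the replicate number, which no label states. Values for the 3 libraries are given in the order total epithelium, placode-enriched 1, placode-enriched 2, as unique molecular identifiers (UMIs, 1 per captured RNA molecule) per 1000000 UMIs of the same cells (CPM).

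Core histones H2A, H2B, H3 and H4 form the protein spool of the nucleosome, and H1 binds the linker DNA between spools. Most genes of the clusters are replication-dependent: they have no introns, they are transcribed as DNA is copied, and their mRNA ends in a short stem-loop in place of a poly(A) tail. The stem-loop is bound by SLBP and the mRNA is degraded when DNA synthesis ends. Some cluster genes also make polyadenylated mRNA from a signal beyond the stem-loop, and such forms are known from cells that have left the cycle. A library primed on poly(A) therefore counts only part of the histone mRNA, and a level below is a level of captured molecules. UMIs were not divided by gene length, so the order of levels between members is not an order of mRNA amounts.

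The stem-loop is the sequence that separates the usual histone mRNA from other mRNAs, and it was found in an annotated transcript (GENCODE vM21, mouse genome GRCm38) of 42 of the 60 members that matched that annotation by name. Capitals mark the paired stem, read 5′ to 3′ on the gene's own strand.
Shared by 24 members (3 H1, 9 H2A, 8 H2B, 4 H3): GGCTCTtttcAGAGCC
Shared by 6 H4 members: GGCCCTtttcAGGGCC
Shared by 5 members (2 H2B, 3 H3): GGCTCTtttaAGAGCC
Hist1h4i and Hist2h4: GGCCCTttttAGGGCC
Hist1h4b and Hist1h4j: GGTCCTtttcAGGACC
The other 3 forms belong to 1 member each. The stem of H4 members carried 1 of 2 sequences that no other family carried. The search used a pattern of fixed length, 16 bases with stems of 6 and a loop of 4, so no other loop length could be found. In 20 members the annotated transcript ended at the loop (within 60 bases), in 22 it ran on beyond it, and in 18 no loop was found. Of the latter 18, Hist1h2bc has 2 exons, and Hist1h1b has 1 annotated transcript, of 743 bases. Others of the 18 have short annotated transcripts, such as 393 bases for Hist1h2ak and Hist1h2an and 312 for Hist1h4k. A loop beyond the annotated end could not be found, so these members are not shown to lack one. A poly(A) signal stood in the last 60 bases of a transcript for 14 members, among them Hist3h2ba, Hist3h2a, Hist1h1c, Hist1h4i and Hist1h2ae.

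Promoters are shown for 3 members that moved differently, chosen after their values were seen: Hist1h2ac, a member that rose in S-scored cells and shares its upstream interval with Hist1h2bc, Hist1h1b, the H1 member with the highest mean level, and Hist3h2ba, which did not rise. Each runs from 250 bases before to 50 bases after the RefSeq start (GRCm38.p6), with capitals on matches, on either strand, to the octamer ATTTGCAT, the CCAAT box and TATAAA.
Hist1h2ac, chr13:23683910-23684209, minus strand: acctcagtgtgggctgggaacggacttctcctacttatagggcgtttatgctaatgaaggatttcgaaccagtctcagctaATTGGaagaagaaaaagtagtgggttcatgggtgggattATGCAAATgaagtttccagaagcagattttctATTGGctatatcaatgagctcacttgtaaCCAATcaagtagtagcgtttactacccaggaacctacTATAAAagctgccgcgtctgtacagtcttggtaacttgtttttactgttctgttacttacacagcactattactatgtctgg
Hist1h1b, chr13:21780576-21780875, minus strand: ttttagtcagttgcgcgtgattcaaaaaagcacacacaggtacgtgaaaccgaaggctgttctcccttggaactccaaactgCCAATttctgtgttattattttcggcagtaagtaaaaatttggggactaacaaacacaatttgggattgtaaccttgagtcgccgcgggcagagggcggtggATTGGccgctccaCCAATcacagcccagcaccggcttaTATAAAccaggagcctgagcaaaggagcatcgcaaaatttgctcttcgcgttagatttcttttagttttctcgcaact
Hist3h2ba, chr11:58948661-58948960, plus strand: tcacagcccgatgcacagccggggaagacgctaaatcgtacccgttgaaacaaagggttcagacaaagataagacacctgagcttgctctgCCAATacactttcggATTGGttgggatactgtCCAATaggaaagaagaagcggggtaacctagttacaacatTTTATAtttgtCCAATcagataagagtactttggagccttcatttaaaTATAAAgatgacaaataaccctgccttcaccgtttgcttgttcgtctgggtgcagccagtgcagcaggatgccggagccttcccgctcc
Among the 53 members with a RefSeq promoter, CCAAT was found in 84.9%, TATAAA in 60.4% and the octamer in 20.8%. Over all 27025 RefSeq promoters of the same length the shares were 37.9%, 14.2% and 1.75%. The octamer was found in 6 of 15 H2A and 5 of 13 H2B promoters and in none of the 5 H1, 9 H3 and 11 H4 promoters, and CCAAT was found in every H1, H2A, H2B and H3 promoter but in 3 of 11 for H4. A match is a string of letters and not a shown binding site.

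The 3 libraries held 1590, 1507 and 1567 cells after removal of 11, 4 and 4 called doublets, with median depths of 21642 to 23419 UMIs per cell, and pairs of libraries shared 1 to 2 cell barcodes. Members took 61028, 42759 and 47003 UMIs, which is 1694, 1230 and 1221 CPM. Summed markers of the sorted classes moved with the gate: the 9 placode markers stood at 541, 1095 and 962 CPM and the 8 suprabasal markers at 4270, 487 and 500 CPM. The 6 fibroblast markers, all of them in both tables, summed to 775, 1017 and 904 CPM, and their part in the results was not tested. Of the immune and Merkel cell markers none was in both tables, the 21 melanoblast-like cells were left out, and 321 cells of a cluster that met no class's marker rule stayed unnamed.

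The libraries stood apart in which members they counted. Hist1h2ap, an H2A gene, was the highest member in each library, at 983, 417 and 225 CPM, and made up 58.1%, 33.9% and 18.4% of all member UMIs. Its exact 95% Poisson interval, which covers counting error only, was 973 to 994 CPM in the total epithelium library and 220.0 to 229 CPM in placode-enriched 2. The gene fell in that order while Hist1h1b, a linker histone H1 gene, went the other way, at 62.6, 95.6 and 154 CPM. Hist1h1e, another H1 gene, stood at 63.5, 77.9 and 133 CPM, and the H1 family's share of member UMIs was 9.31%, 16.8% and 27.2%. Hist1h2ae, the second H2A gene by level, did not follow either course, at 175, 189 and 182 CPM.

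**Figure D1:**
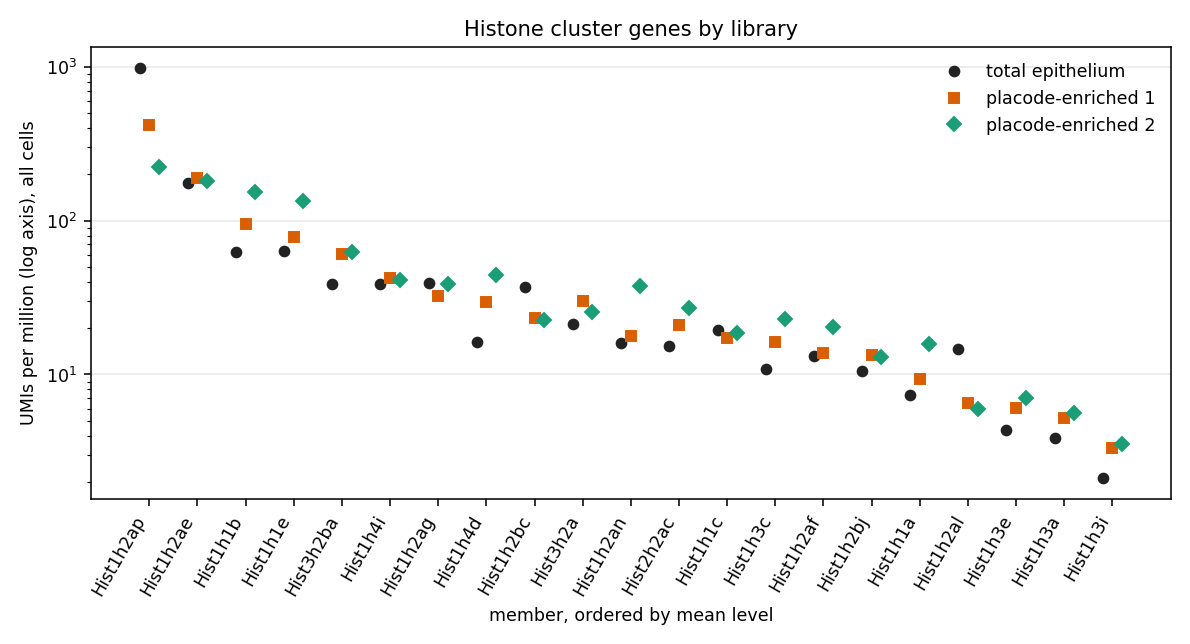
Levels of the 21 named members in all cells of each library, in CPM on a log axis, ordered by mean level; each point is 1 library. Hist1h2ap falls from 983 to 225 CPM across the libraries while Hist1h1b runs from 62.6 to 154.

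The same held among cells in 1 phase of the cycle. Within G2M-scored cells, 26 members had at least 500 UMIs over the libraries. The level in total epithelium was at least 2 times that in placode-enriched 2 for 3 of them, with ratios of 4.15 for Hist1h2ap, 2.36 for Hist1h2al and 2.03 for Hist1h2bc. It was at most 0.5 times for 8, including Hist1h4d (0.34), Hist1h1b (0.37), Hist1h2an (0.37) and Hist1h1d (0.40). The 2 placode-enriched replicates also differed from each other: Hist1h2ap was 1.85 times higher in the first, and 6 members were below 0.67 times. With 1 total epithelium library no test between sorts was made, and sort and library cannot be told apart. All comparisons below were made within libraries, with the library as a block.

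Sequence bears on how far single members can be told apart. Hist1h2ap (chr13:21833026-21833507, minus strand, 1 exon) shares 92.2% of its 98-base windows with Hist1h2ao, yet Hist1h2ao was counted at 0.694, 0.633 and 1.27 CPM. Both carry a run of 12 A directly before the stem-loop, and Hist1h2ae carries a run of 8 A there. How reads that fit several genes were counted is not given in the sources used here, so the split between these copies is uncertain. Fewer than 50% of windows were unique for 20 members and at least 90% were unique for 14, among them Hist1h1b (100%), Hist1h1c (94.8%), Hist3h2ba (94.4%) and Hist1h4d (100%). Hist1h1e (75.0% unique) shares sequence with Hist1h2be, whose annotated transcript overlaps it, and Hist3h2a (70.1% unique) with Trim17.

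Cells with at least 1 UMI of Mki67, a protein of cycling cells that is highest late in the cycle, were compared with cells without one. Most members were higher with Mki67, above all H1 and H2A genes, and Hist1h2bc was the member called lower. Hist1h2ap stood at 1359, 543 and 287 CPM in Mki67-positive cells and at 217, 62.2 and 33.7 CPM in Mki67-negative cells, a 7.63-fold difference (log2 fold change 2.93 ± 0.08 SE, edgeR quasi-likelihood test, adjusted p = 2.6e-08). The lowest Mki67-positive library lay above the highest Mki67-negative one.

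Of the 54 members that passed the filter on low counts, 38 rose and 1 fell, against 18.6% of all 12822 genes called in either direction (9.84% higher, 8.72% lower). The median log2 fold change was 1.04 for these members and -0.02 for all genes. By family, all 5 H1 genes rose, 13 of 16 H2A, 8 of 15 H2B, 7 of 10 H3 and 5 of 8 H4. The median log2 fold change was 2.17 for H1, 2.29 for H2A, 1.02 for H2B, 0.67 for H3 and 0.72 for H4. The other 7 members were too low to test.

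Among H1 genes, Hist1h1b went from 16.1, 15.4 and 21.6 CPM without Mki67 to 85.4, 124 and 197 CPM with it (log2 fold change 2.89 ± 0.12 SE, edgeR adjusted p = 2.17e-07). Hist1h1a rose as steeply from a low level (2.92 ± 0.16), Hist1h1e rose less (2.17 ± 0.08) and Hist1h1d less again (1.62 ± 0.20). Hist1h1c, the H1 gene known to be kept on in many non-dividing cells, changed least of the 5, from 18.1, 12.3 and 10.3 CPM to 20.1, 19.1 and 21.3 CPM (0.58 ± 0.14, edgeR adjusted p = 0.017). Its 2 groups of libraries did not overlap.

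The H2A genes split. Hist1h2ae went from 51.1, 37.1 and 35.5 to 235, 243 and 230 CPM (log2 fold change 2.53 ± 0.09), and Hist1h2af, with the highest value of the members tested, had 2.94 ± 0.22. Hist1h2ag went only from 30.9, 19.7 and 17.7 to 43.4, 36.9 and 45.6 CPM (0.89 ± 0.13, edgeR adjusted p = 0.00089). Hist3h2a did not pass (0.23 ± 0.08, edgeR adjusted p = 0.0759).

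Among H4 genes, Hist1h4d rose with 2.28 ± 0.10 and Hist1h4i, from 31.2, 27.2 and 23.2 to 42.3, 47.9 and 46.6 CPM, with 0.75 ± 0.09. The H3 genes were low throughout. The highest of them, Hist1h3c, went from 7.09, 7.15 and 9.10 to 12.7, 19.6 and 27.6 CPM (1.34 ± 0.13), and Hist1h3a had the smallest of all called rises (0.56 ± 0.17, edgeR adjusted p = 0.042).

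Hist1h2bc, an H2B gene taken as the example of a constantly expressed member, was not constant in these cells. It stood at 51.7, 31.6 and 37.4 CPM without Mki67 and at 30.1, 20.6 and 18.0 CPM with it (log2 fold change -0.81 ± 0.08, edgeR adjusted p = 4.53e-05). The groups did not overlap: the highest Mki67-positive library lay below the lowest Mki67-negative one. Hist3h2ba, the H2B gene with the highest level, was 36.7, 65.8 and 69.4 CPM without and 39.5, 58.9 and 59.9 CPM with Mki67, a difference that did not pass (-0.09 ± 0.06, edgeR adjusted p = 0.355). As a family, H2B took 118, 121 and 132 CPM in Mki67-negative and 119, 132 and 136 CPM in Mki67-positive cells, while H2A went from 352, 170 and 138 to 1792, 977 and 752 CPM.

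Mki67-positive cells were also deeper, with median totals of 24514, 24977 and 27281 UMIs against 19377, 18159 and 18867, and with every cell thinned to 5000 UMIs, which also cut the Mki67-positive cells to 450, 562 and 648, 26 members were called. The count of 39 called members became 25 with DESeq2, 12 without the library block and 21 without placode-enriched 1. The share of all genes called in these fits is not given here. The counts therefore do not tell a change of the members from a change of the whole fit. The same holds for counts under other settings below, unless a share is printed with them.

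Phase scores place the change within the cycle. Each cell was scored for 45 S-phase and 51 G2/M genes that include no histone gene, and called S, G2M or neither: 1648 cells were S-scored, 1782 G2M-scored and 1213 neither. Median depth was 21519 to 24310 UMIs in S-scored, 25753 to 30559 in G2M-scored and 17337 to 18509 in neither-scored cells. The S-linked members are those that rose at least 2-fold from neither-scored to S-scored cells with an adjusted p under 0.05, a rule that 2.46% of all 12501 genes met. It was met by 21 members that also had an Mki67 test, here called S-linked, and by Hist1h2ah, too low for that test. The name stands for a rise over neither-scored cells alone and not for a peak in S phase. The 21 held 83.5%, 75.4% and 73.9% of member UMIs.

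In S-scored cells Hist1h2ap stood at 1106, 395 and 222 CPM, against 75.5, 36.6 and 22.5 CPM in neither-scored cells, and the groups did not overlap (log2 fold change 3.58 ± 0.08, edgeR adjusted p = 5.54e-12). Hist1h2al, the annotated pseudogene, had the largest estimate (3.66 ± 0.26, edgeR adjusted p = 2.04e-07), from 1.26, 0.149 and 0.759 to 16.2, 6.79 and 5.76 CPM. Its neither-scored base was 1 UMI each in 9, 1 and 6 cells. Hist1h2af (3.61), Hist1h2ap and Hist1h1a (3.56) lay within its SE, so it is not shown to be steeper than these. Hist1h1b went from 5.75, 9.82 and 14.9 to 71.1, 90.2 and 142 CPM (3.33 ± 0.11). Hist1h2ae went from 27.2, 24.0 and 26.7 to 200, 192 and 178 CPM, and here all 3 libraries gave nearly the same levels.

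Over all 54 members tested, 27 were higher and 3 lower in S-scored cells, against 27.5% of all genes called in either direction (13.1% higher, 14.4% lower). The 21 S-linked members were 4 of the 5 H1 genes, 11 H2A, 2 H2B, 2 H3 and 2 H4 genes. Without an S-phase call but with an Mki67 call stood members such as Hist1h1c (-0.38 ± 0.16, edgeR adjusted p = 0.107) and Hist1h2ag (0.21 ± 0.13, edgeR adjusted p = 0.247). Hist1h4i (0.48 ± 0.08), Hist1h3c (0.53 ± 0.16), Hist1h2bj (0.48 ± 0.16) and Hist2h2be (0.61 ± 0.18) rose by less than 2-fold. Hist1h3a was the reverse case, with 1.78 ± 0.20 here and 0.56 ± 0.17 for Mki67.

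The 3 members that fell in S-scored cells were Hist1h2bc, Hist3h2ba and Hist3h2a. Hist1h2bc was 74.5, 58.0 and 44.5 CPM in neither-scored and 26.7, 13.03 and 21.2 CPM in S-scored cells (log2 fold change -1.54 ± 0.14, edgeR adjusted p = 3.14e-06). Hist3h2ba went from 41.5, 81.8 and 86.2 to 35.0, 47.1 and 49.6 CPM (-0.65 ± 0.09, edgeR adjusted p = 0.000119), lower in each library though the groups overlapped between libraries. Hist3h2a, which lies on chromosome 11 beside Hist3h2ba, went from 21.5, 37.8 and 29.5 to 19.7, 21.4 and 19.9 CPM (-0.53 ± 0.11, edgeR adjusted p = 0.00273). Levels are shares of all UMIs, and S-scored cells were deeper, so the counts per cell were also read, with no test. Hist1h2bc was lower per cell too, at 1.37, 0.992 and 0.815 UMIs in neither-scored and 0.606, 0.282 and 0.504 UMIs in S-scored cells. Hist3h2ba, at 0.763, 1.40 and 1.58 against 0.793, 1.02 and 1.18 UMIs per cell, was lower per cell in both placode-enriched libraries but not in total epithelium. Hist3h2a was likewise not lower per cell in total epithelium (0.394 against 0.446 UMIs).

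Steady was defined as a log2 fold change within 0.5 of zero in both comparisons, and 1 of the 52 members tested in both met it: Hist1h4h, at 2.08, 3.05 and 2.13 CPM in all cells, with 0.50 ± 0.31 for S and 0.31 ± 0.22 for Mki67. It lay at the edge of that range for S: its levels were 2.28, 2.26 and 2.27 CPM in S-scored and 1.40, 1.64 and 1.77 CPM in neither-scored cells, higher in 3 of 3 libraries with no overlap.

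**Figure D2:**
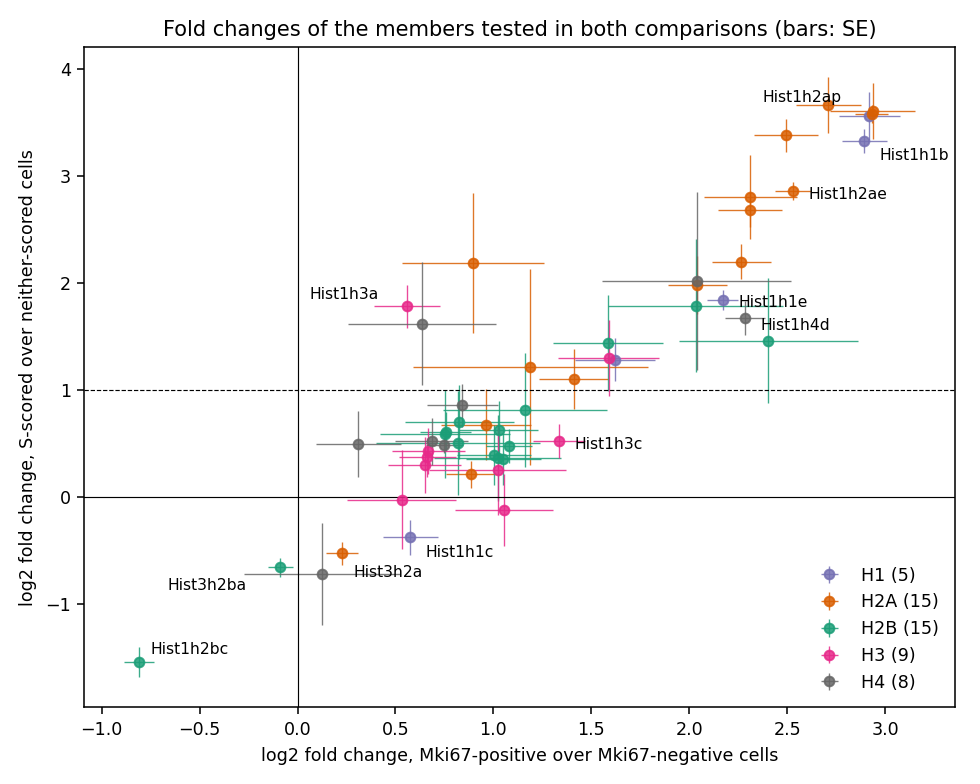
Log2 fold change of the 52 members tested in both comparisons, Mki67-positive over Mki67-negative cells on the x axis and S-scored over neither-scored cells on the y axis, coloured by family, with SE bars; the dashed line marks 2-fold. Hist1h2bc stands alone at the lower left (-0.81, -1.54) and Hist1h2ap, Hist1h1b and Hist1h2ae at the upper right.

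Many members were lower in S-scored than in G2M-scored cells. In that comparison, 30 of 54 members were lower in S-scored cells, 0 were higher and 24 were not called, against 27.4% of all genes called in either direction (13.8% higher, 13.7% lower). The median log2 fold change was -0.51 for members and -0.01 for all genes. Hist1h1e was 61.1, 65.1 and 111 CPM in S-scored and 88.2, 109 and 194 CPM in G2M-scored cells (-0.72 ± 0.07, edgeR adjusted p = 5.06e-06), lower in S in each library. Among the better counted members the differences were widest for Hist1h3c (-1.16 ± 0.11), Hist1h4d (-1.10 ± 0.10), Hist1h2bj (-0.97 ± 0.12) and Hist1h2ag (-0.88 ± 0.10). Hist2h3b, a low member named after its values were seen, had -1.29 ± 0.24. Hist1h2ap (-0.45 ± 0.07) and Hist1h2ae (-0.37 ± 0.06) differed less, and Hist1h2an (-0.17 ± 0.08, edgeR adjusted p = 0.157) and Hist1h3a (0.15 ± 0.13, edgeR adjusted p = 0.444) were not called.

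Hist1h2bc was not shown to differ between S-scored and G2M-scored cells (0.03 ± 0.15, edgeR adjusted p = 0.914), and its neither-scored level was 256%, 351% and 310% of its G2M-scored level. For Hist1h2ap the same percentage was 5.79%, 6.29% and 7.16%, and for Hist1h1e 18.9%, 20.02% and 14.2%. The S over neither count of 30 became 15 without the library block and 19 with thinned cells. The S against G2M count of 30 became 18 with DESeq2, 16 with thinned cells, 1 without the library block, 14 without placode-enriched 1 and 11 without placode-enriched 2.

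Crossing both calls showed where the 21 S-linked members were counted. Neither-scored cells without an Mki67 UMI held 154, 116 and 129 CPM of their sum, and neither-scored cells with one held 149.9, 125 and 122 CPM. In S-scored cells the sum was 482, 224 and 198 CPM without Mki67 and 2369, 1302 and 1176 CPM with it. In G2M-scored cells with Mki67 it was 1960, 1305 and 1294 CPM, below the S-scored value in total epithelium and above it in placode-enriched 2. The low sum in neither-scored cells is fixed by the choice of these members. Among S-scored cells the sum was higher with Mki67 in each library. Mki67 is itself in the G2/M list, and 57.0% of S-scored, 94.8% of G2M-scored and 32.5% of neither-scored cells had an Mki67 UMI.

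Hist1h2bc ran counter to the sum. It stood at 24.3, 10.0 and 15.4 CPM in S-scored cells with Mki67, where the sum was highest or nearly so, and at 79.5, 89.0 and 53.3 CPM in neither-scored cells with Mki67. In each library the latter level lay above that of all neither-scored cells given above. Among neither-scored cells Hist1h2bc was therefore higher with Mki67 than without, with no test. The fall with Mki67 over all cells was not seen within this phase call. In the few G2M-scored cells without Mki67 (53, 23 and 17 cells) Hist1h2bc was 75.6, 85.3 and 78.1 CPM, against 25.6, 14.99 and 13.4 CPM in those with Mki67.

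**Figure D3:**
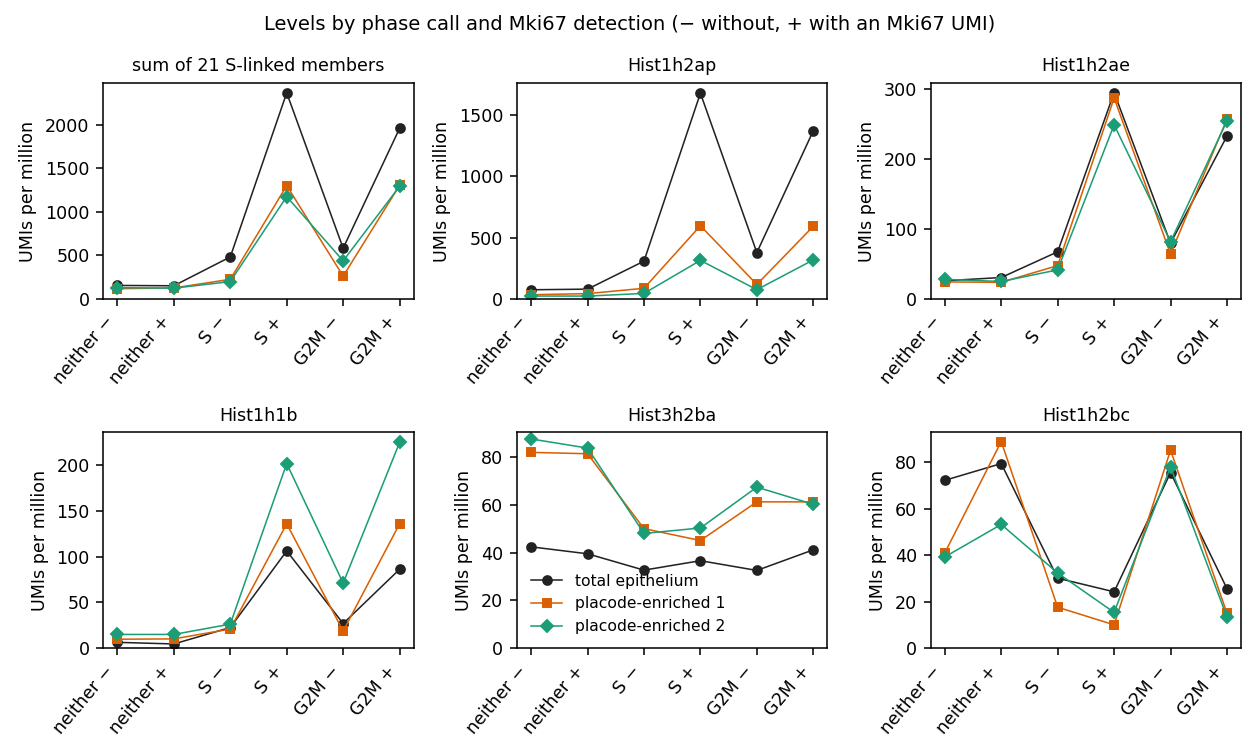
Levels in CPM (y axis from 0) by phase call and Mki67 detection, for the sum of the 21 S-linked members and for 5 members; each point is 1 library and lines join the points of a library. The sum is highest in S-scored and G2M-scored cells with Mki67, and Hist1h2bc is low in those 2 groups.

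On the plane of both scores, with the cells of all libraries pooled and cut into 5 equal bins by each score, the S-linked sum was 110 CPM in the 229 cells lowest in both. It was 211 CPM in the 44 cells highest in S score and lowest in G2M score, and 2817 CPM in the 219 cells of the highest S bin and the G2M bin next to the top. At the lowest S bin and highest G2M bin (356 cells) it was 625 CPM. The members of the sum were chosen for a rise between calls made from these same scores. Low values where both scores are low are therefore fixed by that choice. Hist1h2bc peaked elsewhere, at 149 CPM in 80 cells of the lowest S bin and the middle G2M bin, and lay between 7.33 and 9.13 CPM in all filled bins of the highest G2M score. Hist3h2ba varied less over the pooled plane, from 33.5 to 80.2 CPM, and was highest in the cells lowest in both scores. Cut by G2M score alone, this held in the placode-enriched libraries, at 82.0 and 76.8 CPM in the lowest bin against 61.3 and 63.5 CPM in the highest. It did not hold in total epithelium, at 39.3 CPM in the lowest and 42.0 CPM in the highest bin.

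**Figure D4:**
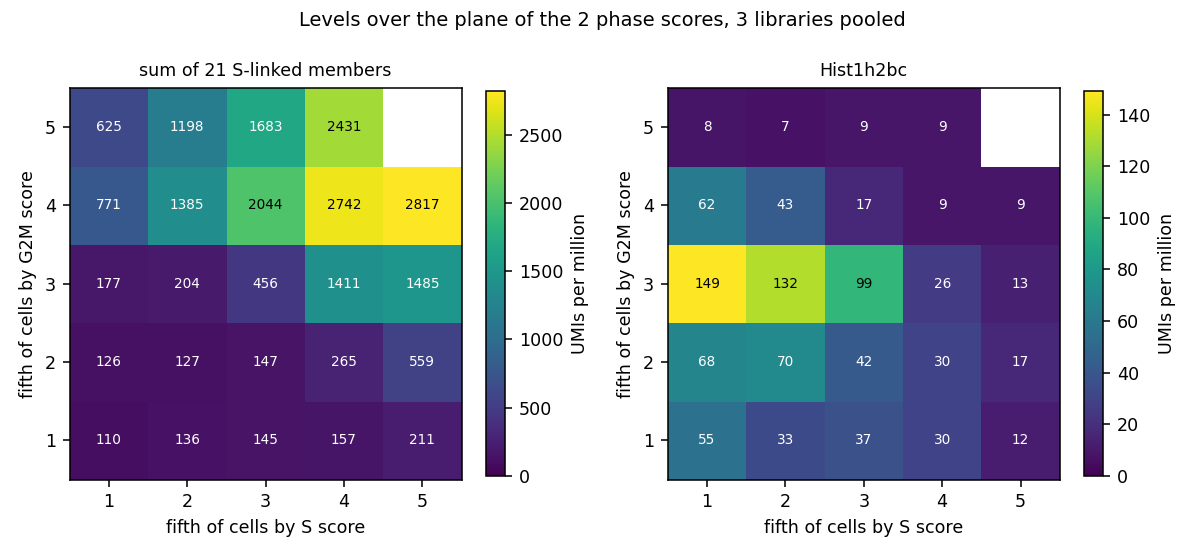
Levels in CPM in 5 by 5 bins of cells by S score (x axis) and G2M score (y axis), the 3 libraries pooled; blank bins held under 20 cells. The sum of the S-linked members, which were chosen by calls from the same scores, is highest at 2817 toward the upper right. Hist1h2bc is highest at 149 in the middle row on the left.

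Near the phase cuts lay 1281 cells (27.5%), within 0.1 of a cut. Free RNA in the droplets was not measured, and its part in the low levels of S-linked members in neither-scored cells was not tested.

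Hist1h2bc was also uneven from cell to cell. The tenth of cells with the most held 55.0%, 69.3% and 73.3% of its UMIs, against 36.7%, 31.8% and 32.6% for Hist3h2ba, and in the total epithelium library these genes had nearly the same mean (37.2 and 38.6 CPM). The most in a single cell was 16, 13 and 15 UMIs for Hist1h2bc and 7, 10 and 12 for Hist3h2ba. Hist1h2bc is itself among the leading genes of placode-like cluster 5, with Cxcl10, Fgf20, Egr1, Dkk4 and Gadd45g. Its level was 88.5, 136 and 122 CPM in this cluster against 36.3, 18.1 and 17.7 CPM in the other cells. This cluster was 2.10%, 5.91% and 6.06% of cells and held 4.03%, 26.4% and 25.7% of the Hist1h2bc UMIs. In total epithelium, basal epidermis-like cluster 4 held 55.2% of them in 35.0% of cells, at 68.6 CPM. In cluster 5, Hist1h1c stood at 21.3, 53.3 and 36.9 CPM against 19.4, 15.6 and 17.7 CPM, and the growth arrest gene Gadd45g at 151, 133 and 86.7 CPM against 21.6, 32.4 and 31.6 CPM. Egr1, Atf3, Ier2 and Cxcl10 were also higher there in each library. Fos was lower, at 0, 0.634 and 1.08 against 18.7, 4.19 and 4.18 CPM, and Jun stood at 19.7, 24.1 and 17.9 against 20.2, 19.3 and 18.9 CPM. The cluster and these genes were chosen after their values were seen, and the values are a description.

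Placode-like cells, named from placode markers such as Shh, Dkk4 and Lhx2, were compared with basal epidermis-like cells within each library. Hist3h2ba was higher in the placode-like cells and 9 members were lower, all of them S-linked. Hist3h2ba stood at 46.2, 68.6 and 71.1 CPM in placode-like and 37.4, 47.4 and 47.3 CPM in basal cells (log2 fold change 0.51 ± 0.06, edgeR adjusted p = 5.19e-05), higher in each library. Hist1h2ae stood at 157, 173 and 153 against 183, 236 and 238 CPM (-0.47 ± 0.06, edgeR adjusted p = 0.000103), with no overlap.

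These 10 calls were among 55 members tested, against 38.2% of all 6341 genes called in either direction (19.2% higher, 19.0% lower). The count is therefore no result about the members as a group. The lower members were Hist1h1a (-0.53 ± 0.10), Hist1h2an (-0.50 ± 0.10), Hist1h2ae, Hist1h2af (-0.47 ± 0.09), Hist1h1e (-0.32 ± 0.08), Hist1h2ap (-0.30 ± 0.06), Hist2h2ac (-0.29 ± 0.08), Hist1h4d (-0.28 ± 0.09) and Hist1h1b (-0.23 ± 0.06). The classes also differed in the cycle: 31.5%, 38.9% and 36.6% of placode-like cells were G2M-scored against 38.4%, 55.8% and 52.0% of basal cells, 60%, 65.4% and 64.1% against 63.3%, 79.0% and 80.2% had an Mki67 UMI, and after thinning to 5000 UMIs 25.4%, 37.1% and 38.2% against 30.6%, 46.4% and 54.3%. The 51 G2/M genes followed, with 28 lower and 0 higher.

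With only S-scored cells, 4 of 38 members tested were lower and 2 higher in placode-like cells, against 23.5% of all genes called in that fit. With only neither-scored cells 2 of 19 were lower and 3 higher, against 21.2%. Hist3h2ba kept its call in both, with 0.33 and 0.61. The basal class came mostly from clusters 0 and 4 in total epithelium and from clusters 2 and 8 in the placode-enriched libraries, and the 10 calls became 1 at the finer clustering (resolution 2), 5 with DESeq2, 0 without the library block, 5 without placode-enriched 1 and 3 without placode-enriched 2.

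Among Mki67-negative cells, 26 members could be tested and 4 were called, against 23.7% of 5432 genes (12.1% higher, 11.5% lower). Hist3h2ba was higher in placode-like cells, at 46.3, 75.9 and 75.1 against 34.1, 40.7 and 50.2 CPM (0.65 ± 0.12, edgeR adjusted p = 0.000301). Hist1h2ap (-0.43 ± 0.10, edgeR adjusted p = 0.00267) and Hist1h2ae (-0.53 ± 0.13, edgeR adjusted p = 0.00373) were lower. Hist1h2bc was lower too, at 50.6, 29.0 and 29.4 against 56.3, 34.5 and 67.9 CPM (-0.64 ± 0.17, edgeR adjusted p = 0.00599). That call rested on placode-enriched 2, with -0.20 and no call without it, and without placode-enriched 1 Hist3h2ba had 0.51 and no call. Of Mki67-negative cells, 40.4%, 57.1% and 62.2% of placode-like and 40.6%, 28.1% and 36.8% of basal cells were neither-scored, and 29 of the 45 S-phase genes were lower and 0 higher in placode-like cells. The 4 calls became 1 with DESeq2, 2 without the library block and 7 without the total epithelium library.

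The Mki67 step was not shown to differ between placode-like and basal cells: edgeR called 0 of 45 members, DESeq2 also called 0, and 19 had an unadjusted p under 0.05. Of all 6014 genes, 0.0166% were called at an adjusted p under 0.05. The share of all genes with an unadjusted p under 0.05 is not given here, so the 19 have no background beside them. The median difference was 0.51 for members and 0.00264 for all genes, and it was 0.39 for the S-phase genes and 0.48 for the G2/M genes, so the shift was not confined to members. At the coarser clustering (resolution 0.5) 6 of 48 members were called, each with a larger step in placode-like cells, against 1.12% of all genes.

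Suprabasal-like cells were named from 8 differentiation genes such as Krt1 and Krt10, of which cluster 7 met 8 and cluster 6 met 4. Cluster 7 had 187, 2 and 6 cells and cluster 6 had 148, 76 and 92, so the placode-enriched values are mostly those of cluster 6. The class differed from basal cells in 2 of 49 members, against 28.1% of 6145 genes (14.2% higher, 13.9% lower). Hist1h2bc stood at 31.6, 9.15 and 17.2 against 39.7, 19.1 and 24.99 CPM (-0.55 ± 0.16, edgeR adjusted p = 0.0254) and Hist1h2ag at 32.7, 25.4 and 35.4 against 41.8, 34.6 and 41.8 CPM (-0.37 ± 0.11, edgeR adjusted p = 0.0264), each lower in 3 of 3 libraries. In total epithelium Hist1h2bc was at 40.98 CPM in cluster 7 and 20.99 CPM in cluster 6, where 46.5% and 11.5% of cells were neither-scored. Its lower class level in that library was therefore seen in cluster 6 and not in cluster 7. The clusters were not tested apart. Among Mki67-negative cells 0 of 17 members were called by edgeR and 1 by DESeq2, and 3 had an unadjusted p under 0.05. Of all genes, 8.88% were called by edgeR (5.26% higher, 3.62% lower). Their share with an unadjusted p under 0.05 is not given here. Neither call of all cells held with DESeq2, without the library block, or without either placode-enriched library.

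Members whose starts face away from each other at close range share an upstream interval, and 10 such pairs lay within 1000 bases. Hist1h2ac and Hist1h2bc start 251 bases apart on chromosome 13, with the promoter printed above between them, and they moved in opposite directions. Hist1h2ac, on the minus strand, had a log2 fold change of 2.81 ± 0.39 in S-scored cells (edgeR adjusted p = 0.000129), from 0.421, 1.04 and 0.126 to 4.20, 3.44 and 3.24 CPM. Hist1h2bc, on the plus strand, had -1.54. In the other pairs of an H2A and an H2B gene, the H2A gene had the larger value, with 1 exception: 3.38 for Hist1h2an against 0.81 for Hist1h2bp, 2.86 for Hist1h2ae against 0.70 for Hist1h2bg, and 2.20 for Hist2h2ac against 0.61 for Hist2h2be. The exception was Hist1h2ag with 0.21 beside Hist1h2bj with 0.48. The remaining pair, Hist1h2bh and Hist1h3f, joins an H2B and an H3 gene (0.51 and 0.25, neither called). The differences within pairs were not tested, and several rest on copies that are hard to tell apart. Unique windows were 16.6% for Hist1h2an, 11.5% for Hist1h2ai, 11.4% for Hist1h2ah and 36.2% for Hist1h2ad. Hist1h2ah and Hist1h2ad were also low, at mean levels of 0.448 and 0.534 CPM, and neither Hist1h2ad nor its partner Hist1h2bf was called. The order of the families within pairs is therefore a description.

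**Figure D5:**
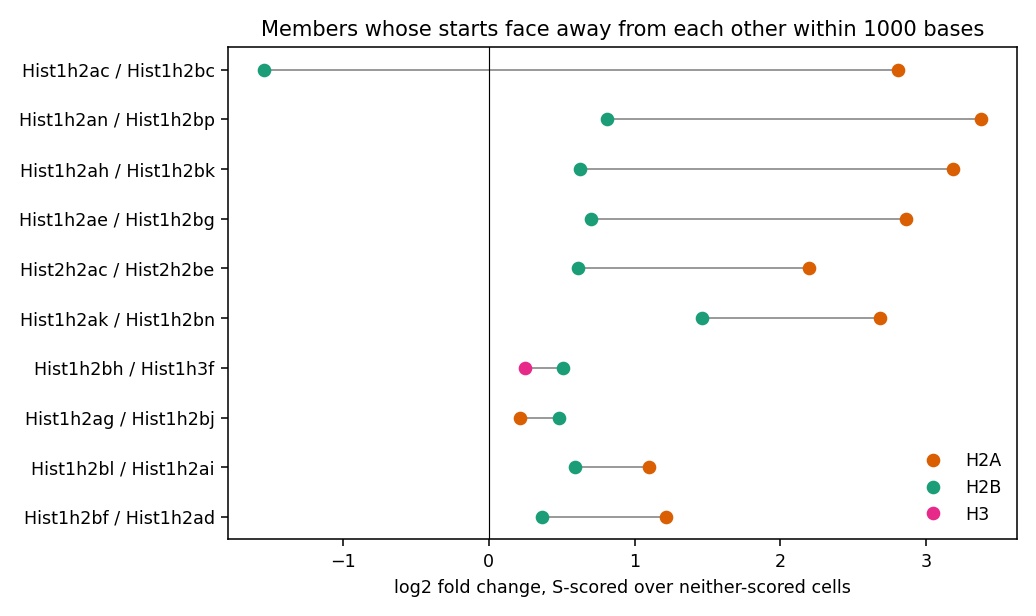
Log2 fold change from neither-scored to S-scored cells (x axis) for the 10 pairs of members with starts facing away from each other within 1000 bases (y axis), coloured by family; each line joins a pair. Hist1h2ac lies at 2.81 and its partner Hist1h2bc at -1.54.

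Stem-loops were found in each group of members: 13 of 20 S-linked members with a matched transcript had one, 21 of the 27 members between the groups, and 2 of the 3 that fell in S. An annotated poly(A) signal stood at the end of 1 of 20, 7 of 27 and 2 of 3 of these. TATAAA was found in 14 of 17 S-linked promoters and 11 of 25 of those between. These are counts of annotation and letters, with no test, and a loop beyond the annotated end of a transcript is not counted.

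Other genes of histone supply were read from 3 lists. Of genes of histone gene transcription and mRNA processing, 20 of 24 were in both tables. Against neither-scored cells 8 of 17 rose and 1 fell in S-scored cells, where 13.1% of all genes rose and 14.4% fell. Among those that rose were Ccne1 (2.33 ± 0.12), Cdk2 (0.98 ± 0.06), Npat, the coactivator of histone gene transcription (0.85 ± 0.10), and Eri1, a nuclease of histone mRNA (0.67 ± 0.07). With Mki67, 6 of 20 rose and 1 fell, against 9.84% and 8.72% of all genes. Slbp, the stem-loop binding protein, is in the S list and so has no phase test; it stood at 343, 295 and 251 CPM in S-scored, 187, 140.2 and 129 CPM in G2M-scored and 134, 106 and 90.9 CPM in neither-scored cells. It was highest in S-scored cells in each library.

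Of histone chaperones, which escort new histones to DNA, 14 of 23 rose and 1 fell in S-scored cells, against 27.5% of all genes called in either direction, led by Asf1b (2.63 ± 0.10), Chaf1a (1.71 ± 0.07) and Hat1 (1.03 ± 0.04). With Mki67 15 of 28 rose and 1, Mcm2, fell, against 18.6% of all genes called. Of the replacement and variant histones outside the clusters, 9 of 11 rose and 1 fell with Mki67, against 18.6% of all genes called, with H2afx at 1.89 ± 0.12 and H2afz at 0.69 ± 0.04. In S-scored cells 3 of 10 rose and 0 fell, a share near the 27.5% of all genes called there. Against G2M-scored cells 7 of 10 were lower in S-scored cells and 1 higher, against 27.4% of all genes called, with H2afx by -1.53 ± 0.08 and H1f0 by -0.88 ± 0.05.

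Outside the clusters, the genes whose counts followed the S-linked sum most closely from cell to cell (mean Pearson r over the 3 libraries, cells thinned to 5000 UMIs) were 2810417H13Rik (0.633), Top2a (0.619) and Hmgb2 (0.518), then Tuba1b (0.494), Tubb5 (0.483), H2afz (0.428), Pbk (0.419), Cdk1 (0.412), Smc4 (0.410) and H2afx (0.402). Between members, Hist1h2ap and Hist1h2ae correlated with r of 0.637, 0.648 and 0.583, and Hist1h2ap and Hist1h2bc with -0.195, -0.145 and -0.114. These are descriptions over cells of the same libraries, which are not replicates.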

How the data were processed

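The deposited tables hold raw UMI counts per gene and cell; Cell Ranger, Seurat and mouse build mm10 are named in the submitters' processing notes, while versions, annotation and cell filters are not given in the sources used here. PolyA RNA was captured with 10x 3′ version 2 chemistry, per the labels.

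Doublets were removed per library (Scrublet in scanpy 1.11.5, expected rate 0.05). Cells were clustered (Leiden, resolution 1, 20 neighbours, 30 components, 1000 variable genes) on 7244 genes that include no histone, marker or listed gene, and classes were tested on the other 7412. A cluster was named where 6 of 9 placode, 7 of 7 basal, 4 of 8 suprabasal or 5 of 6 melanoblast markers were high. Phase was scored on cells thinned to 5000 UMIs, and listed phase genes were left out of phase tests. Counts were summed per library and cell group (at least 10 cells) and tested with edgeR 4.0.16 (TMM, filterByExpr, quasi-likelihood, library as a block, since both sums of a library come from the same pooled embryos, R 4.3.3). Benjamini-Hochberg adjustment ran over all genes, and calls needed an adjusted p under 0.05. SE is that of the log2 fold change. With 3 libraries, p-values measure only the spread between these. Alternatives were DESeq2 1.42.0, RLE scaling, no filter, no block, thinning, each library left out, other Mki67, phase and clustering settings.

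In simulated counts for the Mki67 comparison (12704 genes), 89% of genes changed 2-fold and 98% of genes changed 4-fold were recovered. For genes changed 2-fold, recovery was 80% for Mki67-negative placode-like cells (5380 genes), 77% for Mki67-negative suprabasal-like cells (4870 genes) and 70% for the difference of the Mki67 step (5875 genes). Of the calls made, 5.56% were false for Mki67 and 7.02% for that difference. The simulated counts had a single fixed dispersion for all genes and no differences between libraries, unlike the real counts. These rates are therefore not rates of the real tests. Members in full are the 15 with the highest level, the 5 steepest each way among those called for Mki67 and for S, those called between classes among Mki67-negative cells, and Hist1h2bc, 21 in all. Others were named after their values were seen. Members and gene lists were chosen with earlier results of these data known.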

Additional observations from a re-analysis of the deposited data

Results flagged for a closer look

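Hist1h2aa, an H2A gene known from testis, was outside the comparisons because it was listed in the placode-enriched table only. It had 10 UMIs in placode-enriched 2 and 3 UMIs in placode-enriched 1. It was flagged for standing above 3 counts, the limit that a count of 0 would allow. Its absence from the total epithelium table is not a measured count of 0, so no difference from that library is shown.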

How the results depend on the processing

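RLE scaling changed no call of a named member, and the median of all genes moved by under 0.1 on the log2 scale. Over all alternatives, 502 values of named members kept direction and call, 160 kept direction but lost the call and 11 reversed; the cause was not tested. Hist1h2bc stayed lower in S-scored cells in all alternatives run, with a call in each.

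Without the library block (no replicate block), members called fell from 39 to 12 for Mki67, from 30 to 15 for S over neither, from 30 to 1 for S against G2M, from 10 to 0 for placode-like cells, from 4 to 2 among Mki67-negative placode-like cells and from 2 to 0 for suprabasal-like cells. That fit leaves library differences in the residual spread. Counts of members called in this section stand without the share of all genes called in the same fit. They do not tell a change of the members from a change of the whole fit. DESeq2 gave 25 for Mki67, 18 for S against G2M, 5 for placode-like, 1 for Mki67-negative placode-like, 0 for suprabasal-like and 1 for Mki67-negative suprabasal-like cells. With thinned cells the counts were 19 for S over neither, 16 for S against G2M, 8 for Mki67-negative placode-like, 1 for suprabasal-like and 1 for Mki67-negative suprabasal-like cells. Without the filter the last gave 2.

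Leaving out each library in turn gave 21 to 43 for Mki67, 22 to 25 for S over neither, 11 to 34 for S against G2M, 3 to 13 for placode-like, 2 to 7 for Mki67-negative placode-like, 0 to 3 for suprabasal-like and for Mki67-negative suprabasal-like cells, and 0 to 1 for the difference of the Mki67 step. That difference gave 1 with Mki67 called from 2 UMIs and 6 at resolution 0.5.

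For placode-like cells, S-scored cells alone gave 6, neither-scored cells alone 5, resolution 2 gave 1 and unnamed cells counted as basal 5. At resolution 0.5 the 7 calls were 4 higher and 3 lower. Mki67-negative placode-like cells gave 7 at resolution 0.5 and 2 at resolution 2. Suprabasal-like cells gave 0 with S-scored cells alone, 1 with neither-scored cells alone and 1 at resolution 0.5. The single-phase and unnamed-as-basal settings were chosen after seeing the data. Suprabasal-like cells at resolution 2 were not run, since too few cells remained.

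The reversals were all between placode-like and basal cells. At resolution 2 Hist1h2ap had 0.026 in all and 0.051 in Mki67-negative cells and Hist1h1b 0.042. At resolution 0.5 the values were 0.12 for Hist1h1b, 0.020 for Hist1h1e, 0.045 for Hist1h4d and 0.021 for Hist2h2ac. In S-scored cells Hist1h4d had 0.20 and Hist2h2ac 0.029, and in neither-scored cells Hist1h1e had 0.63 and Hist1h4d 0.25. Depth limits the low members: 17 of 61 had a mean level under 1 CPM.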
